A study of Homo sapiens with 42 samples.

Results

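The proteasome gene set was described in A375 cells, a human melanoma line, across 42 expression arrays in 14 groups of 3. Members were all genes whose platform symbol starts with PSMA, PSMB, PSMC, PSMD, PSME, PSMF or PSMG and a digit, without a hyphen, each read by the single-symbol probe set with the highest mean log2 signal over all arrays. This rule found 44 of the 19775 genes measured. Of these, 42 encode proteasome subunits, regulators or assembly chaperones. The other two meet the rule by symbol only: PSMC3IP (HOP2), a partner of the meiotic recombinase, and PSME3IP1, a protein that binds the activator PSME3. PSMA6 and PSME2 are read only by probe sets that carry several symbols, and PSMB11, PSMC5, PSMD7 and PSMD13 were not analysed here.

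The proteasome is the protease that degrades ubiquitin-tagged proteins. Its 20S core is a stack of outer alpha rings and inner beta rings, in which PSMB5, PSMB6 and PSMB7 carry the active sites. The 19S cap, made of PSMC ATPases and PSMD non-ATPase subunits, recognises and unfolds substrates. Interferon replaces the active beta subunits with PSMB8, PSMB9 and PSMB10, which favour peptides for antigen presentation. When proteasomes are inhibited, the transcription factor NFE2L1 (NRF1) is known to raise subunit genes through antioxidant response elements. The cullin-RING ubiquitin ligases, which send many substrates to the proteasome, need the modifier NEDD8, and MLN4924 (pevonedistat) blocks the enzyme that activates NEDD8.

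The cells received siRNA for 48 h against p53, CDT1 or BRCA1, or GL2, a luciferase sequence used as a control. For 26 h they were given MLN4924 at 650 nM, Nutlin at 5 uM, Daunorubicin at 100 nM or the solvent alone (DMSO, 0.065%). Nutlin frees p53 from its ubiquitin ligase MDM2, and daunorubicin is a DNA-damaging topoisomerase poison. The 14 groups were GL2 siRNA with DMSO (a first and a second set of arrays), MLN4924, Nutlin or Daunorubicin, p53 siRNA with the same 5, and CDT1 siRNA and BRCA1 siRNA each with DMSO or MLN4924. Every group was thus a transfected culture of 1 line, and the labels give neither the siRNA sequences nor whether replicates were separate cultures. The p-values therefore describe how far these arrays scatter, and that scatter may be technical only.

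Values are log2 signal less the array's own median over genes (centring), with the mean of those medians added back. A change is called when its Benjamini-Hochberg adjusted p from limma, over all 19775 genes, is under 0.05 and its size at least 1.5-fold. MLN4924 in GL2 or p53 siRNA cells was compared with both DMSO sets of the same siRNA, Nutlin and daunorubicin with the first set, and MLN4924 in CDT1 or BRCA1 siRNA cells with their own DMSO arrays. For the siRNAs alone, p53, CDT1 or BRCA1 siRNA with DMSO was compared with both GL2 DMSO sets. The titles set the second DMSO set apart by a suffix only. Comparisons that use the same DMSO arrays are not independent of each other. In these bulk extracts, fewer cells that express a gene and less RNA per cell cannot be told apart.

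In all, 3 libraries stood apart. Counts of members, and the changes that moved most without these libraries, are given both ways. BRCA1 had a log2 signal of 4.70 in the library labelled GL2 MLN4924 replicate 3, against 7.95 and 8.24 in the other two of its group. In the library labelled BRCA1 MLN4924 replicate 3 it was 8.18, against 4.93 and 5.28. The ratio of 5' to 3' actin signal was 0.0118 in p53 Daunorubicin replicate 1 and 0.649 to 0.945 on the other arrays. Of the melanocyte markers, SOX10 had a median signal of 1345.0, S100B of 365.3 and MITF of 327.4, while PMEL, MLANA and TYR were low at 15.9, 17.8 and 30.8. Median signals ran from 5.8 (CDH1) to 100.2 (KRT14) over the epithelial markers and from 12.5 (PDGFRA) to 193.6 (LUM) over the fibroblast markers. Over the leukocyte markers they ran from 1.8 (CD14) to 217.6 (LYZ), with PTPRC at 6.0.

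Most members were strongly expressed. Mean signal exceeded 31.9, the median of all values in the table, for 43 of 44 members, and 38 were among the 3431 genes with a mean log2 signal of at least 9. The exception was PSMA8, the testis form of an alpha subunit, at the level of noise here: its SD within groups was 1.31, against a median of 0.15 over all members, and no change of it was called. Across the 30 core members (the alpha ring without PSMA8, the constitutive beta ring and the 19S cap) the range of the 14 group means was 0.59 to 3.19, with a median of 1.01. The cap here counts its assembly chaperones PSMD5, PSMD9 and PSMD10. After median centring, the highest group mean was in p53 siRNA cells with MLN4924 for 27 of the 30 core members. The lowest was in p53 siRNA cells with Daunorubicin, the group with the degraded library, for 19 and in GL2 siRNA cells with Daunorubicin for 7. The matching shares of all genes were not counted. The array medians that centring took off were lowest in p53 siRNA cells with MLN4924, at 5.63 to 5.71. Before centring, the members' median log2 signal was 10.8 to 10.862 in that group and 10.805 to 10.876 in GL2 siRNA cells with MLN4924.

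**Figure D1:**
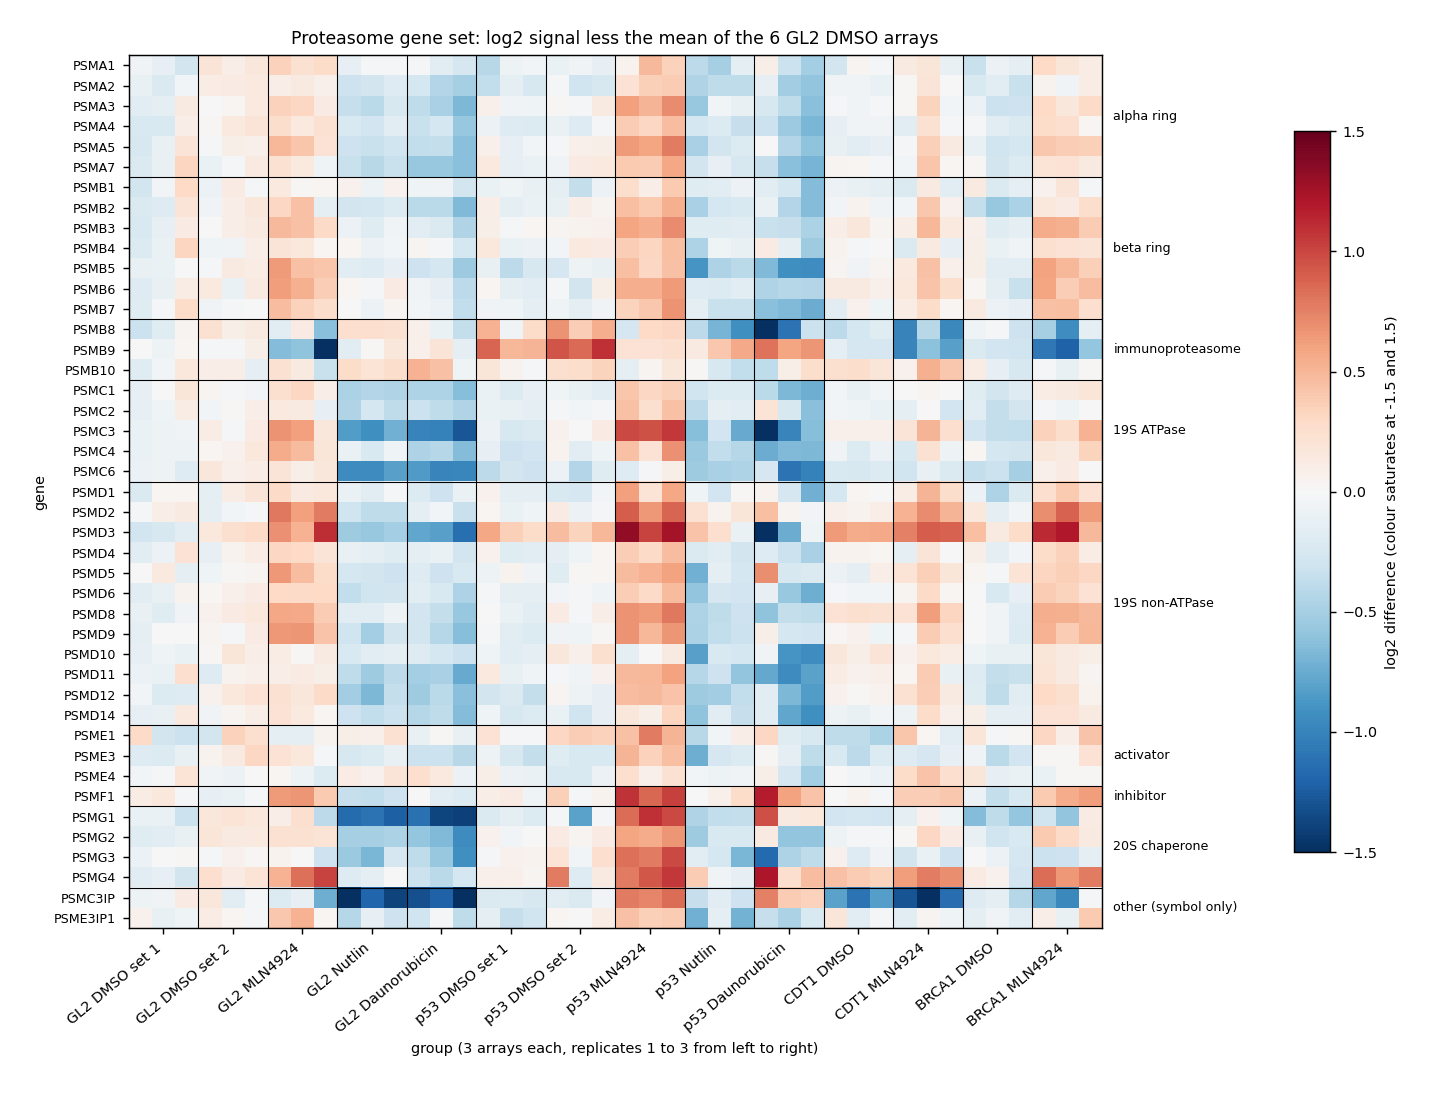
Log2 difference of each member (rows, by role; PSMA8 left out) from the mean of the 6 GL2 DMSO arrays, for each of the 42 arrays (columns, 3 per group). Most core subunits are red in p53 siRNA cells with MLN4924 and blue with Daunorubicin; of the 16 members called higher there with MLN4924, between 1 and 2 are called under the 3 other scalings.

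With MLN4924 in p53 siRNA cells, most proteasome genes had higher values than with DMSO after median centring, an increase that 3 other scalings reduced to a median of at most 0.13. There, 16 of 44 members were called higher and 0 lower, where 25.4% of all genes were called, 17.8% higher and 7.6% lower. The members' median change was 0.55, and 39 of 44 were above 0, against a median of 0.20 over all genes. By role, 2 of 7 alpha subunits, 2 of 7 constitutive beta subunits, 1 of 5 ATPases, 5 of 12 non-ATPase subunits, 1 of 3 activators, 3 of 4 core assembly chaperones and the inhibitor PSMF1 were called higher. Without the fold minimum, 36 of 44 members were higher and 1, PSMB9, lower, where 37.8% of genes passed, 27.4% higher and 10.4% lower.

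The 19S scaffold subunit PSMD2, which binds ubiquitin-like domains, had log2 signals of 11.11, 10.84 and 11.07 with MLN4924 in p53 siRNA cells. The 6 DMSO arrays lay between 10.09 and 10.32, so the groups did not overlap. The change was 0.83 ± 0.10 (SE), or 1.78-fold, with an adjusted p of 2.5e-08 in limma. PSMD2 also rose by 0.73 ± 0.10 in GL2 siRNA cells (adjusted p = 4.0e-07, limma) and by 0.74 ± 0.11 in BRCA1 siRNA cells (adjusted p = 4.6e-06, limma). In CDT1 siRNA cells its change of 0.50 ± 0.11 was under the fold minimum.

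PSMF1, known as PI31 and first described as an inhibitor of the 20S core, rose from 9.24 to 9.66 over the 6 DMSO arrays of p53 siRNA cells to 10.39, 10.17 and 10.33 with MLN4924. All 3 drug arrays lay above all DMSO arrays. The change was 0.90 ± 0.11, or 1.87-fold (adjusted p = 1.2e-07, limma), and 0.76 ± 0.13 in BRCA1 siRNA cells (adjusted p = 4.0e-05, limma). PSMD8 and PSMD9, a lid subunit and a chaperone of the ATPase ring, rose by 0.71 ± 0.08 and 0.69 ± 0.10 in p53 siRNA cells. The activator PSME3, which caps nuclear proteasomes, rose there by 0.65 ± 0.10, while PSME1 and PSME4 changed by 0.38 ± 0.15 and 0.29 ± 0.10 and were not called.

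With MLN4924 in GL2 siRNA cells, 2 members were called higher and 1 lower, where 17.2% of genes were called, 10.2% higher and 7.06% lower. Without the fold minimum 15 were higher and 1 lower, where 28.9% of genes passed, 18.8% higher and 10.1% lower. The higher ones were PSMD2 and PSMG4, a core assembly chaperone with a change of 0.79 ± 0.17. Of its 4 other, dimmer probe sets, 2 read higher and 2 lower, with changes from -0.79 to 0.33. In BRCA1 siRNA cells 7 were higher (PSMA5, PSMB2, PSMB6, PSMD2, PSMD8, PSMF1 and PSMG4) and 1 lower, where 16.9% of genes were called, 9.79% higher and 7.15% lower. With the adjusted p alone, these became 26 and 1, where 25.4% of genes passed, 16.3% higher and 9.11% lower. PSMG4, at 0.79 ± 0.19 there, was at -0.25 when a gene's probe sets were averaged. In CDT1 siRNA cells 0 were higher and 1 lower, where 10.6% of genes were called, 5.93% higher and 4.63% lower. Without the fold minimum 4 were higher and 1 lower, where 15.9% of genes passed, 9.9% higher and 6.04% lower. At an unadjusted p under 0.05, 6 were higher and 2 lower in limma, where 17% of genes were higher and 9.76% lower. Without the 3 libraries that stood apart the counts became 6 higher and 1 lower in GL2, 18 and 0 in p53, and 11 and 2 in BRCA1 siRNA cells. With CDT1 siRNA they stayed at 0 and 1. Of all genes, 19%, 26%, 17% and 11.8% were then called (GL2, p53, BRCA1 and CDT1 siRNA in turn).

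These increases were close to those of other strongly expressed genes, with medians slightly above them. Over the 3431 genes with a mean log2 signal of at least 9, the median change with MLN4924 was 0.21 with GL2 siRNA, 0.46 with p53, 0.13 with CDT1 and 0.28 with BRCA1 siRNA. The members' medians were 0.22, 0.55, 0.15 and 0.38 in the same order. The GL2 median was 0.13 against the second DMSO set alone and 0.28 against the first, and the CDT1 median was 0.07 without CDT1 MLN4924 replicate 2. Array by array, the members' median in BRCA1 siRNA cells was 0.438, 0.386 and 0.357, against 0.29, 0.245 and 0.277 over bright genes. The last of these arrays is a doubted library. In p53 siRNA cells it was 0.53, 0.502 and 0.613 against 0.443, 0.413 and 0.532. With GL2 and CDT1 siRNA some arrays lay above the bright genes and some below. In p53 siRNA cells 83.4% of these bright genes were above 0. The median change of all genes in p53 siRNA cells was -0.22 in the scaling the authors deposited and 0.20 after centring.

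The count of called members followed the scaling. With arrays left in the deposited scaling, 1 member was higher and 1 lower with MLN4924 in p53 siRNA cells, and all genes split into 1054 higher and 3450 lower, where centring gave 3529 and 1503. Quantile normalization gave 2 higher and 1 lower, and centring on the bright genes 1 and 3. The members' median in p53 siRNA cells stayed above 0, at 0.13, 0.06 and 0.05 under these 3 scalings. For GL2 siRNA it was 0.04, 0.02 and -0.001, so that its direction was lost in the last. For BRCA1 siRNA it was 0.20, 0.12 and 0.155, with 37, 31 and 36 of 44 members above 0. For CDT1 siRNA it was 0.04, 0.07 and 0.03, with 27, 29 and 26 above 0. The member called higher under all 4 scalings was PSMG1, in p53 siRNA cells, and PSMD2 and PSMF1 were called under the median centring alone.

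**Figure D2:**
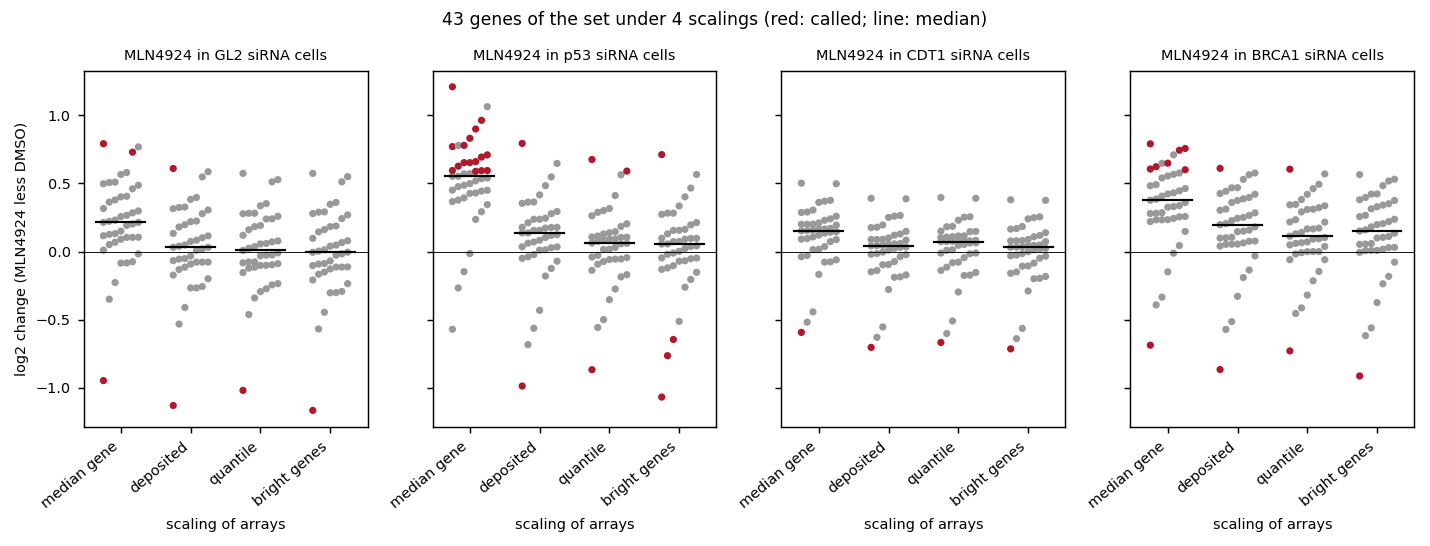
Log2 change with MLN4924 of the members other than PSMA8 (points; y axis) under 4 scalings of the arrays (x axis), in each siRNA. Red points are called and the black line is the median; the median falls from 0.55 to between 0.05 and 0.13 in p53 siRNA cells, while PSMB9 is the lowest red point in each panel where it is called.

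**Figure D3:**
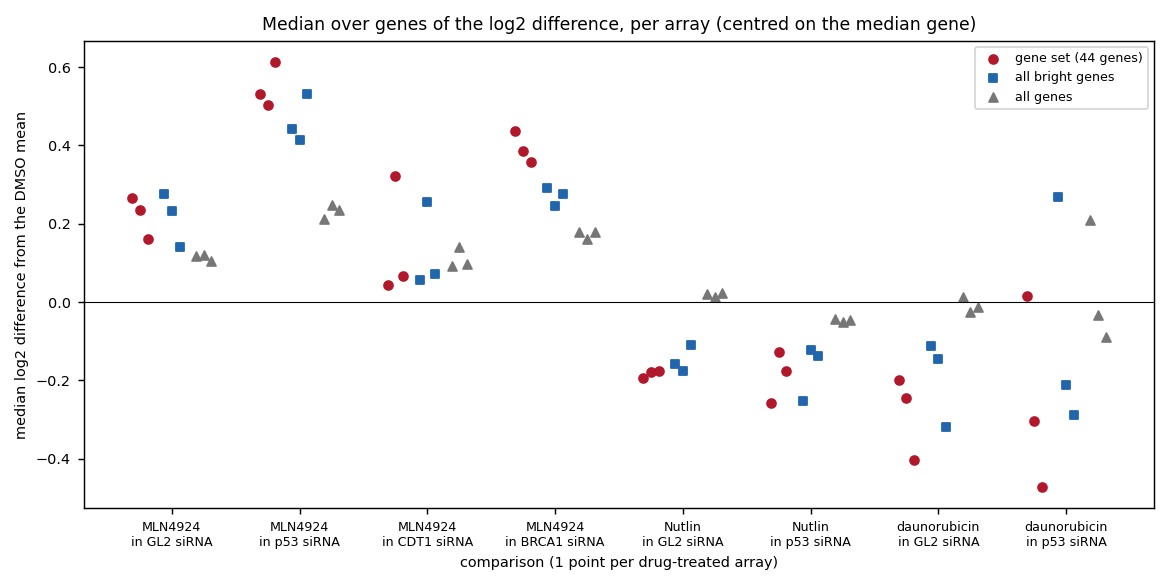
Median over genes of the log2 difference from the DMSO mean (y axis) for each drug-treated array (1 point per array) in 8 comparisons, for the gene set, the 3431 bright genes and all genes. Red and blue points lie close together in most comparisons.

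Of the active-site subunits, PSMB5 and PSMB6 were called higher with MLN4924 in p53 siRNA cells after median centring, but not under the 3 other scalings. PSMB5, the chymotrypsin-like subunit, lay at 11.22, 11.08 and 11.21 in p53 siRNA cells with MLN4924 and between 10.38 and 10.70 on the 6 DMSO arrays. PSMB6, the caspase-like subunit, lay at 11.64, 11.65 and 11.74 against 10.83 to 11.19. Neither gene overlapped between drug and DMSO, and the changes were 0.59 ± 0.10 and 0.65 ± 0.10. PSMB7, the trypsin-like subunit, changed by 0.55 ± 0.10, just under the fold minimum. In GL2 siRNA cells the same genes changed by 0.50 ± 0.10, 0.51 ± 0.10 and 0.36 ± 0.10, with adjusted p of 2.8e-04, 9.0e-05 and 0.0038 in limma, and none reached 1.5-fold.

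PSMB9 (LMP2), the counterpart of PSMB6, fell with MLN4924. In GL2 siRNA cells its log2 signal was 7.55, 7.60 and 6.61 with MLN4924 and 8.13 to 8.29 on the 6 DMSO arrays. The lowest value came from the library whose BRCA1 level went against its label. The change was -0.95 ± 0.15, or 1.93-fold lower (adjusted p = 1.3e-05, limma), and -0.63 without that library and the other doubted ones.

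In CDT1 siRNA cells PSMB9 lay at 7.22, 7.59 and 7.38 with MLN4924 against 8.07, 7.95 and 7.96 with DMSO. The arrays did not overlap, and the change was -0.59 ± 0.18 (adjusted p = 0.019, limma). This call was lost when CDT1 DMSO replicate 1, CDT1 MLN4924 replicate 1 or CDT1 MLN4924 replicate 3 was left out, with changes from -0.69 to -0.50 over all single omissions. In BRCA1 siRNA cells the values were 7.13, 6.99 and 7.62 against 7.99, 7.92 and 7.91. That change was -0.69 ± 0.18 (adjusted p = 0.0039, limma), and leaving out BRCA1 MLN4924 replicate 2 ended the call at -0.56. Fitting only the compared groups also ended it (adjusted p = 0.069, limma). Without the 3 doubted libraries, 1 of which is in this group, the change was -0.87 and called.

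In p53 siRNA cells PSMB9 started higher and also ended lower with MLN4924. The values were 8.43, 8.42 and 8.44 against 8.70 to 9.30 on the 6 DMSO arrays. The change of -0.57 ± 0.15 had an adjusted p of 0.00325 in limma and was just under the fold minimum. Under the deposited scaling, quantile normalization and centring on bright genes it was -0.99, -0.87 and -1.07 and was called. The difference between the changes in p53 and GL2 siRNA cells was 0.38 ± 0.22 (adjusted p = 0.30, limma), which was not called. Without the 3 doubted libraries it was 0.055 (adjusted p = 0.87, limma). PSMB9 was called lower in GL2, CDT1 and BRCA1 siRNA cells under all 4 scalings.

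PSMB8 (LMP7), the counterpart of PSMB5, changed by -0.23 ± 0.27, -0.27 ± 0.27, -0.52 ± 0.31 and -0.39 ± 0.31 with MLN4924 (GL2, p53, CDT1 and BRCA1 siRNA in turn), and none was called. PSMB10 (MECL-1), the counterpart of PSMB7, changed by between -0.15 and 0.11 in these 4 comparisons and its arrays overlapped in each. The drug and DMSO arrays of PSMB8 overlapped in 3 of the 4. Centring on bright genes called PSMB8 and PSMB10 lower in p53 siRNA cells, at -0.77 and -0.65.

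**Figure D4:**
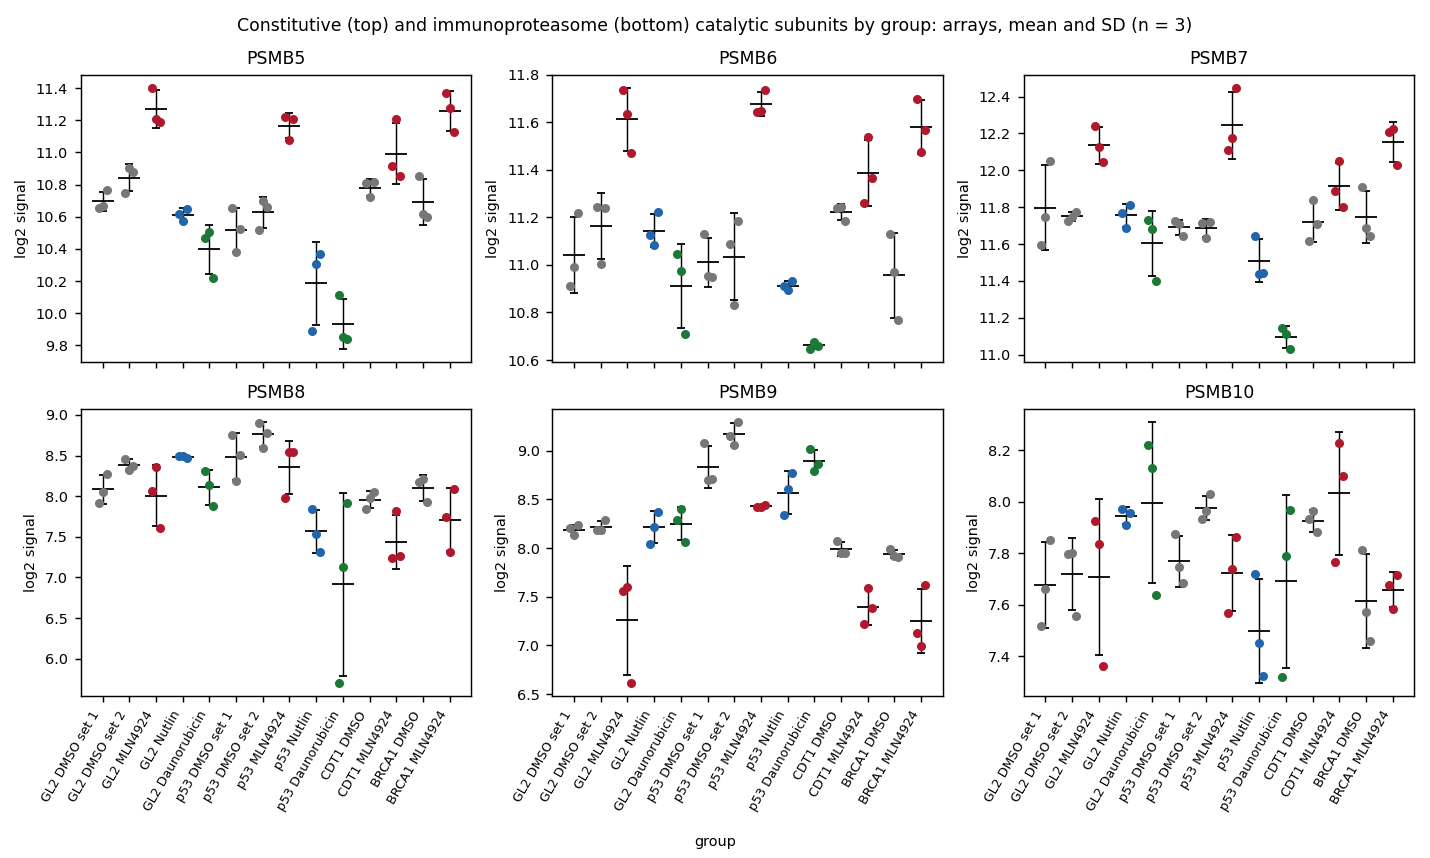
Log2 signal (y axis) of PSMB5, PSMB6 and PSMB7 (top) and PSMB8, PSMB9 and PSMB10 (bottom) by group (x axis); points are arrays, bars the mean and SD of 3. The MLN4924 groups (red) lie above their DMSO groups (grey) for PSMB5 and PSMB6 and below them for PSMB9; under the other 3 scalings the PSMB5 and PSMB6 increases are not called.

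PSMB9 lies head to head with TAP1, which encodes a subunit of the peptide transporter that feeds antigen presentation. Their annotated starts lie 487 bases apart on opposite strands, so the bases upstream of both are shown, from RefSeq on GRCh38.p14, written 5' to 3' on each gene's strand. The first window is chr6:32853942-32854191 (plus strand) and the second chr6:32853705-32853854 (minus strand). Capitals mark matches on either strand to the antioxidant response core TGACNNNGC in PSMB9 and to the interferon response motif, GAAA repeated after any 2 bases, as 2 overlapping matches in TAP1. The upstream window of PSMB10, chr16:67936851-67936910 (minus strand), has an interferon motif in capitals.
PSMB9: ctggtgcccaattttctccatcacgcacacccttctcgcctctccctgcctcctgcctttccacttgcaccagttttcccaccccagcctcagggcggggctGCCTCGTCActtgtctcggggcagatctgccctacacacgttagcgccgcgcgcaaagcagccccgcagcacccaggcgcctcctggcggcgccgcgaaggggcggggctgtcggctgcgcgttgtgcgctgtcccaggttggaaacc
TAP1: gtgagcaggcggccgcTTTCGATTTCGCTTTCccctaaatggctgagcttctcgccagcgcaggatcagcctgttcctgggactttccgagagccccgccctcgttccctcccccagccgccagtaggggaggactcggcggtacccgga
PSMB10: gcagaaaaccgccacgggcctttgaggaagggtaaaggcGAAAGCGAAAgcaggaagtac

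TAP1 was called higher with MLN4924 where PSMB9 was called lower in GL2 and CDT1 siRNA cells, but not in BRCA1 siRNA cells. It lay at 7.72, 7.74 and 7.47 in GL2 siRNA cells with MLN4924, above the 6 DMSO arrays at 6.78 to 6.92, and rose by 0.80 ± 0.10 (adjusted p = 1.2e-07, limma). It rose by 0.89 ± 0.11 in CDT1 siRNA cells. In BRCA1 siRNA cells the TAP1 change was 0.33 ± 0.11 and in p53 siRNA cells -0.22 ± 0.10, neither of them called. With Nutlin in GL2 siRNA cells TAP1 lay at 8.25, 8.45 and 8.59 and rose by 1.60 ± 0.11, while PSMB9 lay at 8.05, 8.22 and 8.38 and changed by 0.02 ± 0.18. With daunorubicin TAP1 rose by 1.09 ± 0.11 and PSMB9 changed by 0.06 ± 0.18. In p53 siRNA cells the TAP1 change was smaller by 1.02 ± 0.14 with MLN4924 and by 1.42 ± 0.16 with Nutlin than in GL2 siRNA cells (adjusted p = 7.7e-06 and 8.4e-08, limma). With daunorubicin the TAP1 difference between p53 and GL2 siRNA cells was not called. Each of the TAP1 calls given here held under all 4 scalings.

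Of the 14 antigen presentation genes measured, 3 were called higher and 1 lower with MLN4924 in GL2 siRNA cells (higher TAP1, HLA-C and HLA-F, lower the peptide-loading factor TAPBP), where 17.2% of all genes were called. HLA-C and HLA-F were not called under the 3 other scalings, whereas TAP1 and TAPBP were. In p53 siRNA cells 1 was higher (the transporter subunit TAP2, 0.84, not called under the 3 other scalings and at -0.21 with a gene's probe sets averaged) and 3 lower, among them TAPBP at -0.66 and the class I activator NLRC5 at -0.59, where 25.4% of genes were called. In BRCA1 siRNA cells 1 was higher and 2 lower, where 16.9% of genes were called. With Nutlin in GL2 siRNA cells 4 were higher and 0 lower, with HLA-B at 0.72 and HLA-F at 0.87, where 16.4% of genes were called. With BRCA1 siRNA alone 5 were higher and 1 lower, among them HLA-E at 0.72, HLA-B at 0.92 and NLRC5 at 0.96, and none of PSMB8, PSMB9 and PSMB10 was called there, where 8.48% of genes were.

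Nutlin lowered a few members in GL2 siRNA cells. 3 of 44 were called lower and 0 higher, where 16.4% of genes were called, 6.71% higher and 9.67% lower. They were PSMC3IP, the ATPase PSMC6 and the chaperone PSMG1, which pairs with PSMG2 to build the alpha ring. The members' median change was -0.21 (-0.12 without GL2 DMSO replicate 3 of the first set, -0.32 against the second set), the bright genes' -0.15. With the adjusted p alone, 12 were lower and 0 higher, where 22.9% of genes passed, 13.6% lower and 9.26% higher.

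PSMC6 lay at 9.96, 9.97 and 10.09 with Nutlin against 10.82, 10.84 and 10.71 with DMSO. PSMG1 lay at 9.04, 9.09 and 8.97 against 10.10, 10.09 and 9.87. PSMC3IP lay at 6.88, 7.28 and 7.08 against 8.39, 8.42 and 8.59. In all 3 genes every Nutlin array was below every DMSO array. The changes were -0.79 ± 0.13 for PSMC6, -0.99 ± 0.19 for PSMG1 and -1.39 ± 0.18 for PSMC3IP (adjusted p = 2.3e-05, 1.9e-04 and 3.8e-07, limma), and each was called under all 4 scalings.

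Daunorubicin gave lower values of the same 3 genes in GL2 siRNA cells. PSMC6 changed by -0.82 ± 0.13, PSMG1 by -1.12 ± 0.19 and PSMC3IP by -1.36 ± 0.18, and the comparison shares its DMSO arrays with that of Nutlin. In all, 6 members were lower and 0 higher, where 16.4% of genes were called, 9.93% lower and 6.49% higher. Without the fold minimum 18 were lower and 0 higher, where 23.1% of genes passed, 14.2% lower and 8.94% higher. The other three, PSMA7 at -0.59, PSMD11 at -0.61 and PSMG3 at -0.60, were no longer called under the deposited scaling, quantile normalization or centring on bright genes, or when GL2 DMSO replicate 3 of the first set or GL2 Daunorubicin replicate 3 was left out, which leaves 3 members lower. The members' median change was -0.26, the bright genes' -0.19. Under the deposited scaling, quantile normalization and centring on bright genes the members' median was -0.085, -0.069 and -0.03. The 5' to 3' actin ratio was 0.697 to 0.769 on the Nutlin and Daunorubicin arrays of GL2 siRNA cells and 0.806 to 0.886 on the DMSO arrays of the first set. The part of this ratio in these changes was not tested.

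In p53 siRNA cells Nutlin called 0 members in either direction, where 0.0556% of genes were called, 0.0405% higher and 0.0152% lower. With the adjusted p alone, the count was also 0, where 0.0607% of genes passed, 0.0405% higher and 0.0202% lower. At an unadjusted p under 0.05, 11 members were lower and 0 higher in limma, where 7.15% of genes were lower and 2.63% higher. The members' median of -0.20 lay near the -0.18 of bright genes.

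Daunorubicin in p53 siRNA cells called 3 members higher and 7 lower, where 12% of genes were called, 5.67% higher and 6.35% lower. Without the fold minimum the counts were 4 and 20, where 17.9% of genes passed, 8.19% higher and 9.67% lower. One of its 3 arrays was the degraded one, and the largest changes came from it. The members' median change was -0.30, against -0.1 over bright genes. Array by array it was 0.016, -0.305 and -0.473, against 0.267, -0.212 and -0.288 over bright genes, the first being the degraded array. Under the deposited scaling, quantile normalization and centring on bright genes the members' median was -0.22, -0.197 and -0.27. The ATPase PSMC3 lay at 5.62, 9.57 and 9.92 and the lid subunit PSMD3 at 5.64, 8.81 and 9.49, the first value of each being the degraded array. The DMSO arrays lay at 10.47, 10.32 and 10.35 for PSMC3 and at 10.14, 9.91 and 9.83 for PSMD3. With all arrays the changes were -2.01 ± 0.52 and -1.98 ± 0.46, and without the 3 doubted libraries -0.63 and -0.81, both still called.

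PSMB8 showed the same dependence, at 5.70, 7.13 and 7.92 against 8.76, 8.18 and 8.51. Its change of -1.57 ± 0.31 became -0.96 without the doubted libraries. The non-ATPase subunit PSMD11 did not depend on that array: it lay at 10.44, 10.27 and 10.40 against 11.35, 11.09 and 11.14, a change of -0.82 ± 0.11 (adjusted p = 4.8e-06, limma). PSMB5 fell by 0.59 ± 0.12 and PSMB7 by 0.60 ± 0.11, calls that the 3 other scalings ended. When the comparison was fitted on its own groups alone, 0 members were called, where 0.258% of genes were. Without the doubted libraries 0 members were higher and 11 lower, where 9.82% of genes were called, and PSMC3IP at 0.58, PSMF1 at 0.47, PSMG1 at 0.33 and PSMG3 at -0.46 were no longer called.

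The test of the difference between p53 and GL2 siRNA cells called PSMC3IP for every drug, among other members. It called PSMG1 for MLN4924 and daunorubicin, and PSMB8 for Nutlin and daunorubicin. For MLN4924, 3 members had a higher change in p53 siRNA cells and 0 a lower one, where 10.4% of genes were called, 6.96% higher and 3.41% lower. For Nutlin the counts were 3 and 1, where 10% of genes were called, 5.3% higher and 4.72% lower. For daunorubicin they were also 3 and 1, where 15.3% of genes were called, 9.65% higher and 5.69% lower. Over both directions together, the share of members called was below that of all genes for each drug.

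PSMG1 lay at 11.03, 11.29 and 11.19 with MLN4924 in p53 siRNA cells, above its 6 DMSO arrays at 9.40 to 10.17. In GL2 siRNA cells it lay at 10.30, 10.44 and 9.80 with MLN4924, overlapping its DMSO arrays at 9.87 to 10.40. The changes were 1.21 ± 0.17 (2.31-fold; adjusted p = 5.8e-07, limma) and -0.02 ± 0.17, and their difference was 1.23 ± 0.23 (adjusted p = 5.4e-04, limma), or 1.04 without the 3 doubted libraries. With daunorubicin the difference was 1.72 ± 0.27 (adjusted p = 2.3e-05, limma), and 1.45 without the doubted libraries. With Nutlin it was 0.78 ± 0.27 (adjusted p = 0.062, limma) and was not called, although the 3 other scalings called it at 0.75 to 0.79 and leaving out the doubted libraries at 0.78 (adjusted p = 0.00325, limma).

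PSMC3IP, which is not a proteasome subunit, had the widest difference of the members called. The noisy PSMA8 differed by 3.16 ± 1.47 with Nutlin (adjusted p = 0.20, limma) and was not called. In p53 siRNA cells PSMC3IP lay at 9.25, 9.20 and 9.31 with MLN4924, at 8.12, 8.30 and 8.15 with Nutlin and at 9.23, 8.85 and 8.81 with Daunorubicin, with DMSO at 8.23 to 8.43. In GL2 siRNA cells the MLN4924 arrays lay at 8.27, 8.35 and 7.74, with DMSO at 8.31 to 8.64. The MLN4924 and Daunorubicin arrays of p53 siRNA cells lay above all of their DMSO arrays and the Nutlin arrays overlapped with DMSO. In GL2 siRNA cells the Nutlin and Daunorubicin arrays lay below DMSO and the MLN4924 arrays overlapped with it. The differences were 1.31 ± 0.22 for MLN4924, 1.33 ± 0.25 for Nutlin and 2.07 ± 0.25 for daunorubicin (adjusted p = 1.2e-04, 3.6e-04 and 3.8e-07, limma). Without the 3 doubted libraries they were 1.12, 1.33 and 1.94. Those of PSMC3IP and PSMG1 that were called stayed called under all 4 scalings and when any single array was left out.

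PSMF1 differed with daunorubicin, by 0.90 ± 0.18 (adjusted p = 6.6e-04, limma): it lay at 10.48, 9.92 and 9.74 in p53 siRNA cells, the first being the degraded array, and at 9.30, 9.14 and 9.10 in GL2 siRNA cells. Without the doubted libraries the difference was 0.68 and still called. PSMD2 differed with Nutlin by 0.63 ± 0.16, from -0.43 in GL2 to 0.20 in p53 siRNA cells, but was not called against both DMSO sets or the second alone. The PSMB8 difference with Nutlin, -1.32 ± 0.44, had an adjusted p of 0.048 in limma and was lost in 10 of 12 single omissions. With daunorubicin the PSMB8 difference was -1.60, called under all 4 scalings but smaller without the doubted libraries. CDKN1A, a p53 target read as a check, lay at 9.01 to 9.25 in GL2 and at 6.48 to 7.57 in p53 siRNA cells with DMSO.

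**Figure D5:**
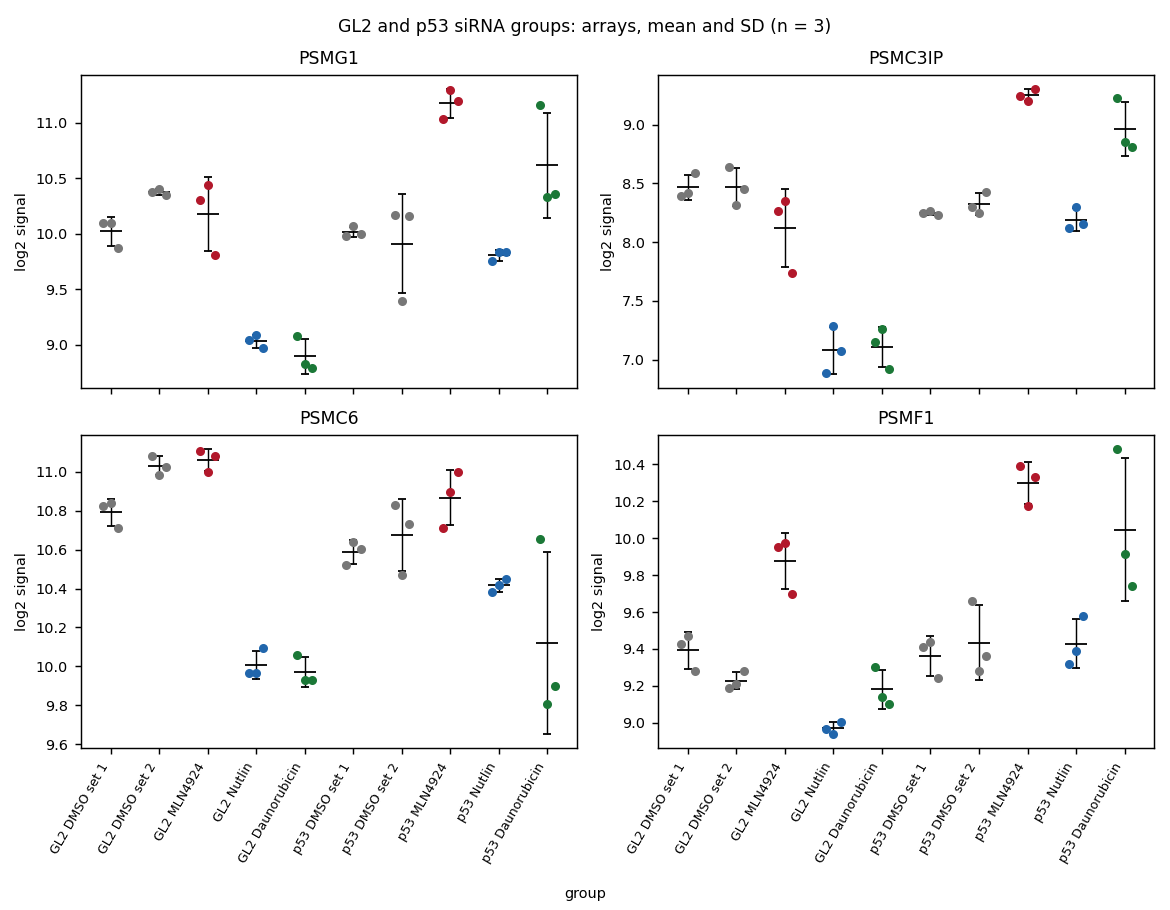
Log2 signal (y axis) of PSMG1, PSMC3IP, PSMC6 and PSMF1 in the 10 GL2 and p53 siRNA groups (x axis); points are arrays, bars the mean and SD of 3. PSMG1 and PSMC3IP lie below DMSO with Nutlin (blue) and Daunorubicin (green) in GL2 siRNA cells; in p53 siRNA cells both have their highest mean with MLN4924 (red).

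With siRNA alone, 0 or 1 of 44 members was called in each comparison, where 3.98% to 8.48% of genes were. With p53 siRNA and DMSO, 1 of 44 was higher and 0 lower, where 3.98% of genes were called, 1.71% higher and 2.27% lower. This was PSMB9, at 9.08, 8.70, 8.71, 9.15, 9.06 and 9.30 on the 6 p53 DMSO arrays and 8.21, 8.13, 8.23, 8.18, 8.19 and 8.29 on the 6 GL2 DMSO arrays. No arrays overlapped, the change was 0.80 ± 0.13, or 1.74-fold (adjusted p = 3.8e-05, limma), and it was called under all 4 scalings and in 12 of 12 single omissions. PSMB8 and PSMB10 changed by 0.39 ± 0.22 and 0.17 ± 0.11 in the same direction and were not called.

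CDT1 siRNA lowered PSMC3IP, at 7.67, 7.36 and 7.64 against 8.31 to 8.64 on the 6 GL2 DMSO arrays. Its change of -0.91 ± 0.15 (adjusted p = 1.1e-04, limma) was the one call among 44 members, where 6.3% of genes were called, 2.72% higher and 3.58% lower. BRCA1 siRNA called 0 members, where 8.48% of genes were called, 4.11% higher and 4.37% lower. At an unadjusted p under 0.05, 12 were lower and 0 higher in limma, where 14.3% of genes were lower and 11.7% higher. The members' median change with BRCA1 siRNA was -0.14, with 3 of 44 above 0, against -0.07 over bright genes. It was -0.077 against the first GL2 DMSO set alone and -0.205 against the second. Under the deposited scaling, quantile normalization and centring on bright genes it was -0.104, -0.1 and -0.093, each with 9 of 44 above 0.

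Of 21 partner genes measured (ubiquitin receptors and shuttles, VCP cofactors, assembly and recycling factors), 9 were called higher and 0 lower with MLN4924 in p53 siRNA cells, where 17.8% of all genes were higher and 7.6% lower. They included the ubiquitin receptor ADRM1 at 1.09 ± 0.12, the ligase UBE3C at 0.70 ± 0.10, UFD1, a cofactor of VCP, at 0.70 ± 0.10 and the adaptor ECPAS at 0.84 ± 0.13. The partner list had a median change of 0.54, near the 0.46 of bright genes. The shuttle UBQLN4 was called higher in all 4 MLN4924 comparisons, by 0.66 ± 0.12, 0.74 ± 0.12, 0.62 ± 0.14 and 0.67 ± 0.14 in turn for GL2, p53, CDT1 and BRCA1 siRNA. Under the 3 other scalings UBQLN4, UBE3C, UFD1 and ECPAS were not called in these comparisons, and ADRM1 in p53 siRNA cells was called under all but quantile normalization. With daunorubicin in GL2 siRNA cells 4 partners were lower and 0 higher, where 9.93% of genes were lower and 6.49% higher, among them the deubiquitinase UCHL5 at -1.02 ± 0.17 and AKIRIN2, which brings proteasomes into the nucleus, at -0.92 ± 0.17, both called under all 4 scalings.

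NFE2L1, the factor known to raise proteasome genes, changed by 0.54 ± 0.10 with MLN4924 in p53 siRNA cells and by 0.29 ± 0.10 in GL2 siRNA cells, and was not called in any comparison. POMP, the maturation factor of the 20S core, changed by 0.42 ± 0.11 and 0.11 ± 0.11 and was not called either. The arrays measure RNA, so processing of the NFE2L1 protein was not read.

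The upstream 250 bases of 38 members had an entry in the RefSeq table. The antioxidant response core TGACNNNGC, on either strand, matched in 10 of 38 (26.3%), where 11% of all 27305 promoters had a match. The interferon motif, on either strand, matched in 4 of 38 (10.5%), where 3.07% of all had one. Of the 16 members called higher with MLN4924 in p53 siRNA cells, 14 had an entry and 3 a match to the antioxidant core: PSMD12, a lid subunit, PSMD9 with 2 matches, and PSMG1. Of the other 28 members, 24 had an entry and 7 a match. The matches of these called members are shown in capitals with 10 bases to each side, on GRCh38.p14: PSMD12 at chr17:67366724-67366752 (minus strand), PSMD9 at chr12:121888631-121888659 and chr12:121888678-121888706 (plus strand), and PSMG1 at chr21:39183616-39183644 (minus strand).
PSMD12: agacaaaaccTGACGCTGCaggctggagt
PSMD9: cgctactcctGCCGGGTCAccacaggcgc
PSMD9: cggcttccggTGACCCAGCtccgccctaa
PSMG1: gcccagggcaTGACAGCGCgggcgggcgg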

How the data were processed

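The deposited table has 1 linear signal intensity per probe set and array (54675 probe sets, 42 arrays), per the file headers and the values. Per the submitters' processing notes the authors ran Affymetrix Expression Console, with no version named. Each array's mean after trimming 2% at each end was 149.98, so arrays had been scaled by the authors. Background correction, detection calls and scan dates were not given in the sources used here.

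Values of 0 (147, none in a member) were raised to 0.1, and log2 was taken. Of the probe sets, 41091 carried 1 symbol and were used. Arrays were centred on their median gene, since array medians ran from 5.63 to 6.35. One limma 3.58.1 fit (R 4.3.3) of all 14 groups had 28 residual degrees of freedom and 14 comparisons. The titles mark the second DMSO set but do not say which drug it belongs to. On 12 genes that differ between the sets (first at 0, second at 1), Nutlin and daunorubicin arrays lay at -0.7 to 0.25. The MLN4924, CDT1 siRNA and BRCA1 siRNA arrays lay at 0.4 to 1.3. Among them, the GL2 MLN4924 arrays lay at 0.79 to 0.83, the CDT1 DMSO arrays at 0.87 to 0.91 and the BRCA1 DMSO arrays at 1.18 to 1.3. These groups lay nearer the second set, yet both sets entered with equal weight where they were compared with GL2 DMSO. The number of arrays limits precision. On simulated data for MLN4924 in GL2 siRNA cells (19775 genes), recovery was 20.9% at a 1.5-fold change, 65.7% at 2-fold and 75.8% at 4-fold. The changed genes were drawn from all genes, so these rates are not those of this gene set. A call also needs an estimate of at least 1.5-fold, so the rates cannot separate the number of arrays from the fold minimum.

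The members, lists and comparisons were chosen with earlier results of these data known. Named were up to 6 called members a direction by moderated statistic, PSMB5 to PSMB10, the PSME genes, PSMC3IP, NFE2L1, POMP and up to 4 called partner or antigen genes. Other called members, and changes of PSMD2, PSMG1, PSMF1 and PSMC6 that were not called, were named after their values were seen. Alternatives were other scalings, a pseudocount of 16, probe set choice, other DMSO sets, a replicate block, no fold minimum, fewer groups and omitted libraries. The replicate numbers did not pair the samples.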

Additional observations from a re-analysis of the deposited data

Results flagged for a closer look

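Drug changes of 7 members differed between p53 and GL2 siRNA cells in a test of the difference (limma, adjusted p under 0.05 and at least 1.5-fold; log2, p53 less GL2). For MLN4924 the differences were 1.31 for PSMC3IP, 1.23 for PSMG1 and 0.87 for PSMG3, a chaperone of the alpha ring. For Nutlin they were 1.33 for PSMC3IP, 0.61 for PSMC6, 0.63 for PSMD2 and -1.32 for PSMB8. For daunorubicin they were 2.07 for PSMC3IP, 1.72 for PSMG1, 0.90 for PSMF1 and -1.60 for PSMB8. The PSMB8 value for daunorubicin was -0.99 without the 3 doubted libraries, and the PSMG3 value for MLN4924 0.75. The PSMG3 difference was not called under quantile normalization or centring on bright genes. The PSMC6 difference was lost in 6 of 12 single omissions and under centring on bright genes. Groups of 3 arrays are too small for a test of single outlying arrays.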

How the results depend on the processing

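Counts of called members (main value first) changed as follows. For MLN4924 in p53 siRNA cells, 16 became 2 in the deposited scaling, 3 with quantile normalization, 4 with centring on bright genes (chosen after seeing the data), 10 with a pseudocount of 16 and 37 without the fold minimum. For MLN4924 in GL2 siRNA cells, 3 became 1 with quantile normalization or centring on bright genes, 5 against the first DMSO set alone, 7 without the 3 doubted libraries and 16 without the fold minimum. For MLN4924 in BRCA1 siRNA cells, 8 became 2 in the deposited scaling or with quantile normalization, 1 with bright centring, 5 with the pseudocount, 4 with the mean of a gene's probe sets, 13 without the doubted libraries and 27 without the fold minimum. For MLN4924 in CDT1 siRNA cells, 1 became 0 with the pseudocount and 5 without the fold minimum.

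For Nutlin in GL2 siRNA cells, 3 became 5 against the second DMSO set and 12 without the fold minimum. For Nutlin in p53 siRNA cells, 0 became 1 without the doubted libraries or against both DMSO sets (PSMB8, at -0.92 and -1.06) and 3 against the second set. For daunorubicin in GL2 siRNA cells, 6 became 3 in the deposited scaling, with quantile normalization, bright centring or the pseudocount, and 18 without the fold minimum. For daunorubicin in p53 siRNA cells, 10 became 24 without the fold minimum and 0 when only the compared groups were fitted, where 0.258% of genes were called. For p53 siRNA, 1 became 3 without the fold minimum. For CDT1 siRNA, 1 became 2 without the doubted libraries or with only the compared groups. For BRCA1 siRNA, 0 became 1 with the mean of probe sets or the second DMSO set and 5 without the fold minimum. The difference for MLN4924 went from 3 to 6 without the fold minimum, and that for daunorubicin from 4 to 2 with only the compared groups. The cause was not tested.

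With 1 array left out at a time, counts ran from 3 to 5 for MLN4924 in GL2, 12 to 18 in p53, 0 to 1 in CDT1 and 6 to 12 in BRCA1 siRNA cells, 3 to 4 and 0 to 0 for Nutlin and 3 to 8 and 7 to 11 for daunorubicin in GL2 and p53, 1 to 1 for p53, 1 to 1 for CDT1 and 0 to 1 for BRCA1 siRNA, and 3 to 4, 2 to 4 and 4 to 6 for the differences for MLN4924, Nutlin and daunorubicin. Counts moved by over 1.5 times without GL2 DMSO replicate 2 of the first set or GL2 MLN4924 replicate 3 (MLN4924 in GL2, 5), CDT1 DMSO replicate 1 or CDT1 MLN4924 replicate 1 (0), GL2 DMSO replicate 3 of the first set or GL2 Daunorubicin replicate 3 (daunorubicin in GL2, 3) and BRCA1 DMSO replicate 2 (BRCA1 siRNA, 1). The Nutlin difference fell to 2 without any of 6 arrays: replicates 1 and 2 of the first GL2 DMSO set, replicate 1 of the first p53 DMSO set, GL2 Nutlin replicates 1 and 2, and p53 Nutlin replicate 3.

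The replicate number was added as a block. Deviations of same-numbered arrays correlated at -0.11 to 0.11, so the numbers were not taken as a pairing. The block moved the Nutlin difference from 4 to 3 members and left the other 13 counts at their main values. Among the called changes named, 2 turned direction, both with the mean of a gene's probe sets: PSMG4 with MLN4924 in BRCA1 siRNA cells, from 0.79 to -0.25, and TAP2 with MLN4924 in p53 siRNA cells, from 0.84 to -0.21.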
